A study of Mus musculus with 8 samples.

Results

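The lysosomal set was defined by gene name as 46 genes that encode acid hydrolases, their lumenal helper proteins, lysosomal membrane proteins, the transcription factor Tfeb and the subunits of the vacuolar proton pump. Of these, 44 had at least 1 probe set annotated to their symbol alone, out of 18193 genes so annotated on the array. Cd63 and Atp6v0c had none and were not analysed here. The 44 genes were measured by 107 probe sets, of which 91 were bright enough to be tested and 16 were not, and every one of the 44 kept at least 1 tested probe set. They comprised 21 hydrolases, 3 lumenal helper proteins, 5 membrane proteins, 1 transcription factor and 14 pump genes.

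The cells were subcutaneous preadipocytes, the precursors of fat cells, isolated from day 2 newborn mice of the C57BL/6 background carrying the Dicer lox/lox genotype. Dicer is the enzyme that makes mature microRNAs by cutting their precursors. In 4 Dicer knockout samples the cells received the adenovirus Ad5CMVCre-eGFP, which encodes the Cre recombinase that removes floxed DNA, and in 4 control samples they received Ad5CMVeGFP, which encodes GFP without Cre. Both groups carried the floxed alleles, and both received 750 MOI of virus with 4 µg/mL polybrene. Total RNA was taken 4 days later and hybridised to Affymetrix arrays, with 1 array per sample. No array held cells given Cre without floxed Dicer, so Cre, its virus and Dicer loss cannot be told apart. The labels number the samples as biological replicates but name no separate animals or cultures, and a p-value here covers only the spread among these samples, which may be technical. The samples are bulk RNA, in which fewer cells of a type and less RNA per cell cannot be told apart.

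Lysosomes are acidic organelles in which hydrolases break down glycogen, glycoproteins, glycosaminoglycans, sphingolipids, other lipids and proteins delivered by endocytosis and autophagy. The acid pH is set by a rotary ATPase, whose cytosolic V1 domain hydrolyses ATP and whose membrane V0 domain carries protons across the membrane. Many lysosomal genes are transcribed together by TFEB and its relatives, which bind an element built on the letters CACGTG in their promoters. In fat cell precursors lysosomes also release stored lipid and clear autophagic cargo.

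Promoter sequences were read from RefSeq (GRCm38.p6), as 300 bases from 250 before to 50 after the transcript start, and they were available for 40 of the 46 genes. CACGTG, which reads the same on both strands, stood in the promoters of 12 of the 40 genes (30%), against 8.09% of all 27025 genes in the table. The longer TCACGTGA, which contains it and also reads the same on both strands, stood in 5 of the 40 (12.5%), against 1.12% of all genes. The 12 genes were 6 hydrolases (Arsa, Gaa, Gla, Glb1, Naglu and Sgsh), 2 membrane proteins (Lamp1 and Mcoln1) and 4 pump genes (Atp6v0b, Atp6v0d1, Atp6v0e and Atp6v1a). They held 18 matches, 17 of them beginning before the transcript start. A match is a description of these letters, not a measured binding site. One match of each gene is shown with 10 bases on either side, in the direction of transcription and with CACGTG in capitals, so that the flanking letters can be compared.
Gaa, chr11:119267813-119267838, plus strand: tctgtgcgatCACGTGtttgactctg
Naglu, chr11:101070011-101070036, plus strand: accttcaggtCACGTGgcccgaggtc
Arsa, chr15:89477425-89477450, minus strand: aactcagtgtCACGTGttgtctgctc
Gla, chrX:134601217-134601242, minus strand: agcgattgatCACGTGagcatctacg
Glb1, chr9:114401020-114401045, plus strand: gcttctgagtCACGTGgcctacagag
Sgsh, chr11:119355524-119355549, minus strand: gcctgccgtgCACGTGaccgtgggga
Lamp1, chr8:13159090-13159115, plus strand: ggcaagatatCACGTGgtccagcgcc
Mcoln1, chr8:3500464-3500489, plus strand: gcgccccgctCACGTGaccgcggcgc
Atp6v0b, chr4:117887350-117887375, minus strand: gcgcgggggtCACGTGgggtcggcgc
Atp6v0d1, chr8:105566052-105566077, minus strand: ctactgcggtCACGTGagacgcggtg
Atp6v0e, chr17:26676389-26676414, plus strand: gcgcgccgatCACGTGagcctctgtt
Atp6v1a, chr16:44139375-44139400, minus strand: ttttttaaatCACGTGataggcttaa
Lamp1 held 4 matches, at positions -61, -45, -28 and -15 from its start, and Atp6v0b, Gla and Mcoln1 held 2 each. The whole promoter is shown for Gaa, the gene with the most negative difference of the set, with its single CACGTG in capitals.
Gaa, chr11:119267713-119268012, plus strand: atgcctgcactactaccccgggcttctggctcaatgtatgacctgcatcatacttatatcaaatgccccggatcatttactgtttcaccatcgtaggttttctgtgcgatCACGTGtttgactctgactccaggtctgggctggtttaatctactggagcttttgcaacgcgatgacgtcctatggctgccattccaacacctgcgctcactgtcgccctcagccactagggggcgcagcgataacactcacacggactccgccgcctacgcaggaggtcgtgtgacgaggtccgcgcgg

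The brighter Dicer1 probe set read 1158.3, 1190.4, 1403.8 and 1110.1 on knockout arrays 1 to 4, against 1152.7, 1140.7, 2113.7 and 1190.3 on control arrays 1 to 4, so the groups overlapped (log2 difference -0.15, SE 0.20, limma adjusted p = 0.999). The sources used here do not place this probe set inside or outside the excised part, so it does not check the deletion. The median signal of the 8 arrays was 321.1 to 418.9. Preadipocyte and fibroblast markers were bright, with Pdgfra at 16920 and Col3a1 at 125800 in the mean of the 8 arrays, and their summed signal was 294200 to 354500 in knockouts and 320600 to 391500 in controls. Of the 9 tested, 6 had a log2 difference below 0 (median -0.0865). Among them Dlk1, a preadipocyte surface protein, averaged 31350 ± 19680 in knockouts and 48650 ± 19280 in controls (SD, n = 4 each) and was lower in every pair. Its log2 difference of -0.725 passed in the paired fit, which takes the replicate number as a block (limma adjusted p = 0.0436), and not in the unpaired fit (0.999). Dcn, a matrix proteoglycan, and Pdgfrb were also lower in every pair (-0.388, SE 0.29, and -0.177, SE 0.291). Thy1, of the same list, was higher in every pair (0.222, SE 0.124). In all 4 pairs 3 of the 9 were thus lower (33.3%, against 9.44% of all genes) and 1 was higher (against 8.64%). Markers of some other cell types lay above 0, without passing in either fit. The 4 tested skeletal muscle markers had a median of 0.541, and the 2 tested adipocyte markers, Fabp4 and Pparg, had 0.552 and 0.279. Their sums overlapped between the groups, at 2728 to 3805 in knockouts and 1914 to 3135 in controls for muscle, and at 2740 to 7490 in knockouts and 2736 to 4798 in controls for adipocytes. The 3 tested keratinocyte and epithelium markers were all above 0 (median 0.162), as were the 3 tested endothelium markers (median 0.0504). Keratinocyte and epithelium sums were 2717 to 3550 in knockouts and 2212 to 2734 in controls. Endothelium sums were 1725 to 2442 in knockouts and 1732 to 2582 in controls. Macrophages and osteoclasts are rich in lysosomes, so their markers were read beside the set. Of 13 macrophage and leukocyte markers, 6 passed the filter on brightness and 4 averaged under 73.1, among them C1qa, C1qc and Itgam, and their summed signal was 3472 to 3876 in knockouts and 3343 to 3657 in controls. The osteoclast markers summed to 8583 to 10820 in knockouts and 8142 to 12250 in controls. All 4 tested osteoclast markers had log2 differences below 0 (median -0.106), as most lysosomal genes did, and Ctsk and Acp5 were lower in every pair. This list shares Acp5 and Tcirg1 with the lysosomal lists described at the end. The part of any of these cell types in the lysosomal differences was not tested.

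No lysosomal gene passed the test. Each gene was represented by its brightest tested probe set, and knockout was compared with control by limma, with p-values adjusted over the 27022 tested probe sets and called under 0.05. In this unpaired fit 0 of 91 member probe sets passed in either direction, against 0.0037% of all tested probe sets higher and 0% lower. In the paired fit, which takes the replicate number as a block because same-numbered arrays deviated together, 0 of 91 passed too, against 0.037% higher and 0.0111% lower. Counted by gene, the paired fit called 0.0604% of all genes higher and 0.0151% lower, and 0 of the 44. The lowest adjusted p of the set was 0.999 in the unpaired and 0.124 in the paired limma fit. At an unadjusted limma p under 0.05, 4 of the 44 genes were lower (9.09%, against 1.94% of all genes) and 0 were higher (against 1.99%). The 4 were the hydrolases Gaa and Arsb, the activator protein Gm2a and the pump accessory gene Atp6ap1. In the paired fit Naglu and Psap joined them, so 6 genes were lower (13.6%, against 5.36% of all genes) and 0 higher (against 4.96%).

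Differences were small throughout. Over the 44 genes the log2 difference, knockout minus control, ran from -0.45 for Gaa to 0.21 for Atp6v1d, with a median of -0.0293, beside a median of -0.00196 over all 13256 genes. It was below 0 for 28 of the 44 (63.6%), against 50.4% of all genes. The 3 lumenal helper proteins and 5 membrane proteins were all below 0, with medians of -0.22 and -0.0945. The 21 hydrolases had 12 below 0 and a median of -0.0149, and the 14 pump genes had 8 below 0 and a median of -0.0069. In all 4 replicate pairs, 8 genes were lower (18.2%, against 9.44% of all genes) and 0 were higher (against 8.64%). The 8 were Gaa, Neu1, Arsb, Arsa, Ppt1, Gm2a, Psap and Lamp2. They are 5 hydrolases, 2 helper proteins and 1 membrane protein, with no pump gene at its brightest probe set. Dimmer probe sets of the pump genes Atp6v1g1 and Atp6ap2 were lower in every pair. Over the 91 member probe sets, 14 were lower in all 4 pairs (15.4%, against 8.25% of all tested probe sets) and 1 was higher. Of all 27022 tested probe sets, 2328 were higher in all 4 pairs. These lists were chosen with results of these data known, and the shares are given as a description with no test of the list.

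**Figure D1:**
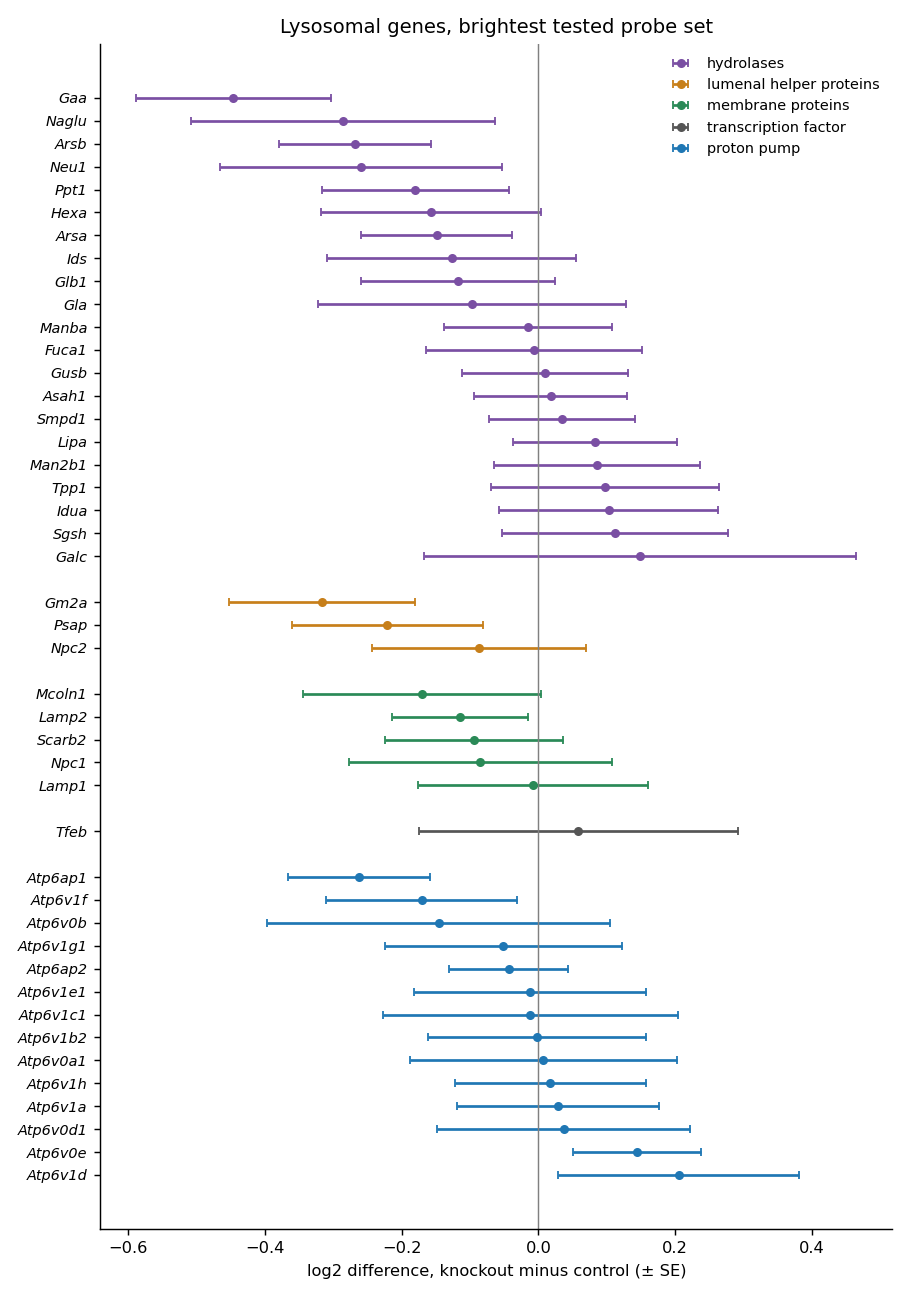
Log2 difference, knockout minus control, of each of the 44 lysosomal genes (points) with the standard error of the unpaired limma fit (bars), by group and ordered within it; the vertical line marks 0. Differences ran from -0.45 for Gaa to 0.21 for Atp6v1d, and all helper and membrane proteins lay below 0 while the pump genes lay on both sides.

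Among the enzymes that trim glycogen and glycoprotein sugars, Gaa, the acid glucosidase that degrades glycogen and is deficient in Pompe disease, had the largest difference. It read 9817.4, 7788.9, 10769.2 and 9932.1 on knockout arrays 1 to 4, against 11710.1, 11853.4, 16827.7 and 12150.4 on control arrays 1 to 4. All 4 knockout values lay below all 4 control values, and control array 3 stood above the other controls. The means were 9577 ± 1265 in knockouts and 13140 ± 2468 in controls (SD, n = 4 each), a log2 difference of -0.45 (SE 0.14, 0.734-fold, limma adjusted p = 0.999, paired adjusted p = 0.124). The exact two-sided permutation p was 0.0286, the smallest that 4 against 4 arrays can give. A dimmer Gaa probe set had a log2 difference of -0.28 (SE 0.19) with overlapping groups.

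Neu1, the sialidase that removes terminal sialic acids, averaged 2028 ± 606 in knockouts and 2403 ± 452 in controls (SD, n = 4 each), with a log2 difference of -0.26 (SE 0.21). It was lower in 4 of 4 pairs, with a difference of -0.00555 in pair 4, and its groups overlapped. Its dimmer tested probe sets gave -0.0992 and 0.0379. The mannosidases Man2b1 and Manba and the fucosidase Fuca1 gave log2 differences of 0.0853 (SE 0.15), -0.0149 (SE 0.12) and -0.00721 (SE 0.16). For these last 3 the difference was smaller than its error.

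Of the 6 hydrolases that degrade glycosaminoglycans, 3 were below 0 and 3 above. Arsb, the sulfatase that removes sulfate from dermatan and chondroitin sulfate, read 6466, 5651.9, 6298.4 and 6379.1 on knockout arrays 1 to 4, against 8321.8, 6793.4, 7995 and 6874.6 on control arrays 1 to 4. Its groups did not overlap. The log2 difference was -0.27 (SE 0.11, limma adjusted p = 0.999, paired adjusted p = 0.322) and the exact two-sided permutation p was again 0.0286. Its dimmer tested probe sets were also below 0, at -0.0925 and -0.64. Gaa and Arsb were the 2 genes of the 44 with separated groups (4.55%, against 1.22% of all genes lower), and 0 were separated in the other direction (against 1.3%).

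Naglu, the glucosaminidase of heparan sulfate breakdown, read 2371.1, 2723.4, 3840.4 and 3190.6 on knockout arrays 1 to 4, against 2316.3, 3586.6, 5197 and 4110 on control arrays 1 to 4. It was lower in pairs 2, 3 and 4 and about level in pair 1, and the groups overlapped widely (log2 difference -0.29, SE 0.22, paired SE 0.11, limma paired adjusted p = 0.428). Ids, which removes sulfate from iduronate, had a log2 difference of -0.13 (SE 0.18), and its dimmer tested probe sets gave 0.42 and 0.24, so its probe sets disagreed in sign. Gusb, Idua and Sgsh, which complete the breakdown of the same chains, gave log2 differences of 0.00933 (SE 0.12), 0.10 (SE 0.16) and 0.11 (SE 0.17).

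The 7 sphingolipid hydrolases had a median log2 difference of -0.0972, with 4 below 0, and none reached an unadjusted p of 0.05. Hexa, a hexosaminidase subunit deficient in Tay-Sachs disease and the brightest hydrolase probe set, read 21605.3, 22691.5, 22811.4 and 31112.9 on knockout arrays 1 to 4, against 19814.4, 27416.1, 31258.3 and 31724.9 on control arrays 1 to 4. Knockout array 4 stood apart from the other knockouts, and the groups overlapped (log2 difference -0.16, SE 0.16). Arsa, the sulfatase of myelin sulfatide, had a log2 difference of -0.15 (SE 0.11) and was lower in 4 of 4 pairs. Gla, which removes galactose from globosides, and Glb1, the galactosidase behind the senescence stain, had log2 differences of -0.0972 (SE 0.23) and -0.12 (SE 0.14). Asah1, the acid ceramidase, and Smpd1, the acid sphingomyelinase, were near 0 at 0.0176 (SE 0.11) and 0.0346 (SE 0.11). Galc, the galactosylceramidase, was dim at 271 ± 50.1 in knockouts and 256 ± 153 in controls (SD, n = 4 each), and its log2 difference of 0.15 had an SE of 0.32.

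The remaining enzymes gave mixed values. Lipa, the acid lipase that frees cholesterol and fatty acids from lipoprotein lipids, had a log2 difference of 0.0827 (SE 0.12). Tpp1, a tripeptidyl peptidase, had 0.097 (SE 0.17) at its brightest probe set. Its dimmer tested probe set gave 0.35 (SE 0.15, limma adjusted p = 0.999) and was higher in every pair. Of the 91 member probe sets it was the 1 above 0 at an unadjusted p under 0.05 in the unpaired fit, against 2.08% of all tested probe sets, and 6 were below 0, against 1.69%. Ppt1, the thioesterase that removes palmitate from proteins, was lower in 4 of 4 pairs, with a log2 difference of -0.18 (SE 0.14).

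The helper proteins do not cleave substrates themselves but present lipids to the hydrolases or carry them. The values of Gm2a on every array and the means of Psap were chosen for display after they had been seen. Gm2a, which lifts gangliosides out of membranes for Hexa, read 3486.8, 2542.7, 2916.8 and 2792.4 on knockout arrays 1 to 4, against 4186.4, 3533.1, 3156.9 and 3795 on control arrays 1 to 4. Knockout array 1 overlapped the controls, and the 3 other knockouts lay below all of them (log2 difference -0.32, SE 0.14, limma adjusted p = 0.999, paired adjusted p = 0.335). Its dimmer tested probe sets gave -0.0193 (SE 0.269), lower in 2 pairs and higher in 2, and -0.337 (SE 0.194). Psap, the precursor of the saposins that activate sphingolipid hydrolases, averaged 39550 ± 6229 in knockouts and 46130 ± 7655 in controls (SD, n = 4 each), with overlapping groups. Its log2 difference was -0.22 (SE 0.14, paired SE 0.07, limma paired adjusted p = 0.363), and another tested probe set gave -0.27 (SE 0.13). Npc2, the soluble cholesterol carrier and the brightest probe set of the 3, read 41884.6, 45771, 47775.5 and 62609.2 on knockout arrays 1 to 4, against 39811.5, 50093.5, 55691.4 and 65724.4 on control arrays 1 to 4. Its values differed more between replicate numbers than between the groups (log2 difference -0.0869, SE 0.16).

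**Figure D2:**
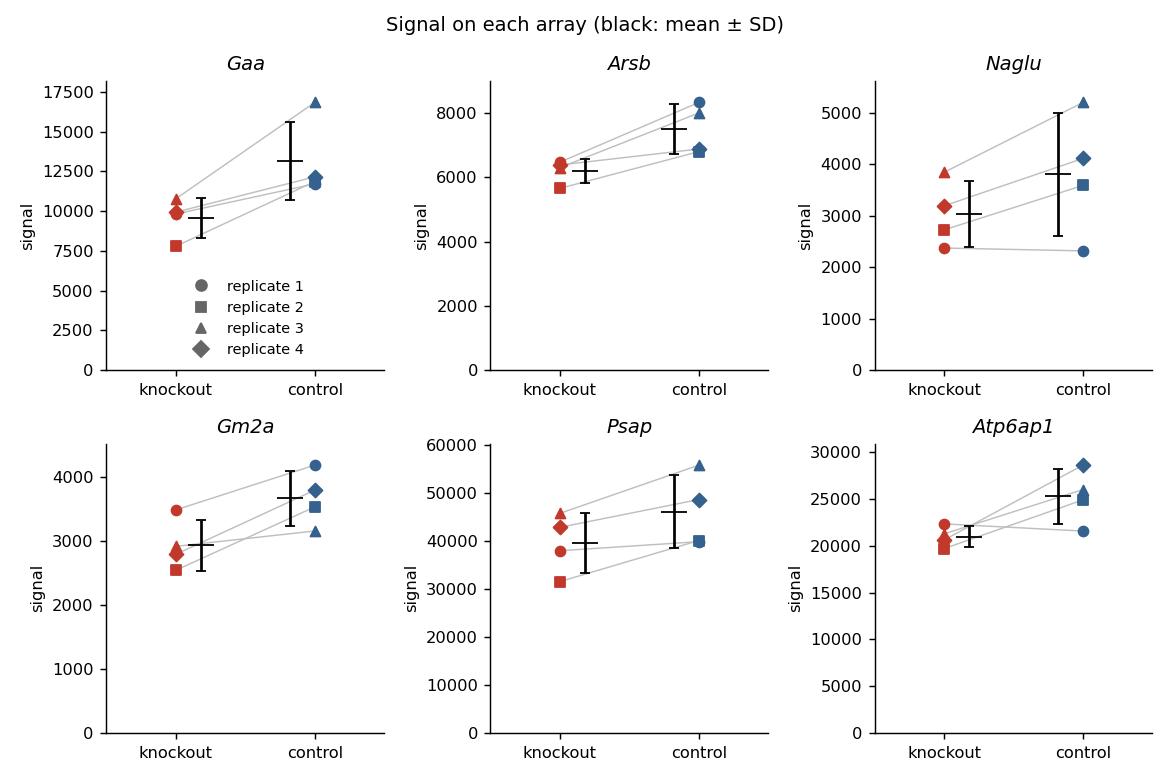
Array signal for 6 genes in knockout (left, red) and control (right, blue) samples; marker shapes give the replicate number, grey lines join same-numbered arrays and black bars are the mean ± SD of 4 arrays. Gaa and Arsb are the genes whose groups do not overlap, and in Naglu and Atp6ap1 the replicate 1 pair is about level while the other 3 pairs are lower in the knockout.

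All 5 membrane proteins had log2 differences below 0, and none reached an unadjusted p of 0.05 at its brightest probe set. Mcoln1, a calcium channel of the lysosomal membrane, read 1924.5, 1950.7, 2260.2 and 2577.1 on knockout arrays 1 to 4, against 1749.9, 2454, 2782.7 and 2983.1 on control arrays 1 to 4 (log2 difference -0.17, SE 0.17). Scarb2, the receptor that brings glucocerebrosidase to lysosomes, read 8321.9, 9231.2, 11832.9 and 8964.9 on knockout arrays 1 to 4, against 8789, 10326.1, 11564.9 and 10110.2 on control arrays 1 to 4 (log2 difference -0.0945, SE 0.13). Both sets of values overlapped. Npc1, the membrane partner of Npc2 in cholesterol export, and Lamp1, a heavily glycosylated coat protein, had log2 differences of -0.0848 (SE 0.19) and -0.0083 (SE 0.17).

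Lamp2, the other main coat protein, which also takes part in autophagy, was measured by 4 tested probe sets that disagreed in sign. The brightest read 56201.9, 63963.8, 66344.2 and 55762.7 on knockout arrays 1 to 4, against 60082.5, 65481.9, 74257.8 and 62713.6 on control arrays 1 to 4 (log2 difference -0.12, SE 0.10). A dimmer Lamp2 probe set read 20973.3, 17279.6, 23718.6 and 25376.1 on knockout arrays, against 24487.3, 24723.8, 26047 and 32761.7 on control arrays. Its log2 difference was -0.31 (SE 0.14, adjusted p = 0.999 by limma), with overlapping groups. The other tested probe sets gave -0.24 and 0.0456. Lamp2 has several splice forms, and the sources used here do not say which of them each probe set measures.

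Tfeb, the transcription factor of the set, read 1139.9, 943.9, 632.4 and 836.5 on knockout arrays 1 to 4, against 1042.1, 1110.1, 732.6 and 560.2 on control arrays 1 to 4. The groups overlapped over most of their range (log2 difference 0.0584, SE 0.23, limma adjusted p = 0.999). Its 95% interval was -0.45 to 0.57. Of the 12 genes with CACGTG in the promoter, 8 had a difference below 0, with a median of -0.11 and a range of -0.45 to 0.14. The 26 measured genes with a promoter sequence that lacks it had 16 below 0, a median of -0.0293 and a range of -0.32 to 0.21. These ranges overlapped, and Gaa, with CACGTG, lay below every gene without it. The difference between these groups of promoters was not tested.

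The pump genes lay around 0, with a median log2 difference of -0.0069. None of the 8 V1 subunits, which form the ATP-hydrolysing head and stalk, reached an unadjusted p of 0.05 at its brightest probe set. Atp6v1a, the catalytic subunit, had a log2 difference of 0.0282 (SE 0.15) with a 95% interval of -0.30 to 0.35, and Atp6v1b2, its partner in the head, had -0.00201 (SE 0.16). Atp6v1c1, Atp6v1e1, Atp6v1g1 and Atp6v1h, of the stalk and its regulators, gave log2 differences of -0.0118 (SE 0.22), -0.0122 (SE 0.17), -0.0515 (SE 0.17) and 0.0175 (SE 0.14). A dimmer Atp6v1g1 probe set gave -0.301 (SE 0.205, limma paired adjusted p = 0.251) and was lower in every pair. Atp6v1d, of the central rotor, read 15353.7, 15136.1, 19824.1 and 21518.4 on knockout arrays 1 to 4, against 11535.5, 21007.9, 14369.7 and 16078.7 on control arrays 1 to 4. It was higher in pairs 1, 3 and 4 and lower in pair 2 (log2 difference 0.21, SE 0.18). Its dimmer tested probe sets gave -0.0223 and 0.0436. Atp6v1f, another rotor subunit, read 19749.7, 23678.5, 23061.7 and 24637 on knockout arrays 1 to 4, against 19212.3, 25625.5, 28794.3 and 30153.7 on control arrays 1 to 4 (log2 difference -0.17, SE 0.14). Its 3 highest controls lay above every knockout array.

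Of the 4 measured V0 subunits, which form the proton channel, 1 was below 0 and 3 above. Atp6v0a1, the large subunit that guides the protons, Atp6v0b, a ring subunit, and Atp6v0d1, which couples ring and rotor, gave log2 differences of 0.00709 (SE 0.20), -0.15 (SE 0.25) and 0.0372 (SE 0.19). Atp6v0e, a small membrane subunit, averaged 34790 ± 2280 in knockouts and 31490 ± 2250 in controls (SD, n = 4 each), with a log2 difference of 0.14 (SE 0.0932). The 3 tested probe sets of Atp6v0b gave -0.15, -0.026 and 0.21, so its direction depended on the probe set. Over all 14 pump genes the 95% intervals of the unpaired fit lay between -0.69 and 0.59.

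The accessory gene Atp6ap1, which helps assemble the pump, had the most negative difference of the pump genes. It read 22342, 19697.2, 21274.6 and 20626.3 on knockout arrays 1 to 4, against 21575.5, 24908.5, 26008.6 and 28619.6 on control arrays 1 to 4. Control array 1 lay within the knockout range, and the 3 other controls lay above every knockout array. The log2 difference was -0.26 (SE 0.10, limma adjusted p = 0.999, paired adjusted p = 0.374, exact two-sided permutation p = 0.0571). Atp6ap2, the prorenin receptor and the brightest pump probe set, read 35494.2, 40830.6, 36257.5 and 39024.7 on knockout arrays 1 to 4, against 36932.5, 39149.5, 41144.2 and 38916 on control arrays 1 to 4 (log2 difference -0.0437, SE 0.0876). Its other tested probe sets gave -0.22, lower in every pair, and -0.115.

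On average, the V1 and V0 subunits of the pump differed more between replicate numbers than between knockout and control. Averaged over the 8 V1 subunits, the deviation from the 8-array mean was -0.31, 0.0218, -0.0053 and 0.29 log2 units on knockout arrays 1 to 4, against -0.38, 0.16, 0.0119 and 0.21 on control arrays 1 to 4. Arrays numbered 1 were thus the lowest and arrays numbered 4 the highest in both groups. The average of the V0 subunits ran alike, at -0.37, 0.0417, 0.15 and 0.20 on knockout arrays, against -0.26, 0.0569, 0.00788 and 0.17 on control arrays. In 7 of the 8 V1 subunits, all but Atp6v1d, the 2 lowest of the 8 arrays were the 2 numbered 1, against 9.8% of all genes. This held for 9 of the 14 pump genes, 3 of the 5 membrane proteins and 5 of the 21 hydrolases, each at its brightest probe set. Among the pump genes it held for 2 of the 4 V0 subunits and 0 of the 2 accessory genes. Atp6v0e read 33589.7 and 33055.5 on knockout and control arrays 1, and 32766.9 and 32802.5 on knockout and control arrays 4. Both dimmer tested probe sets of Atp6v1d were also lowest on the arrays numbered 1. They read 8503.3 and 7298.9 on knockout array 1, and 8755.5 and 7211 on control array 1. The adipocyte gene Fabp4, a fatty acid carrier, was also lowest on the arrays numbered 1, at 1877.4 in the knockout and 2079.7 in the control. Its other values were 5952 to 6206.2 in knockouts and 3057.2 to 3941.2 in controls. Pparg, the other tested adipocyte marker, was lowest on array 1 within each group, at 698.2 in the knockout and 499.1 in the control. Control array 2, at 652.5, lay below its knockout array 1, so its 2 lowest arrays were not the 2 numbered 1. Preadipocyte and fibroblast markers followed the replicate number too, in both directions. Lum was lowest on the arrays numbered 1, at 3436.2 in the knockout and 2386 in the control. Dlk1 was highest on them, at 60140.3 in the knockout and 72944.1 in the control. A replicate pattern was thus not particular to the pump genes. A control probe set for the 5′ end of 18S ribosomal RNA was low on arrays numbered 1 and 3 (5905.9 to 14007.2) and high on those numbered 2 and 4 (30583.9 to 43029.9), which is a different division. The part of cell state or RNA quality in the replicate pattern was not tested.

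**Figure D3:**
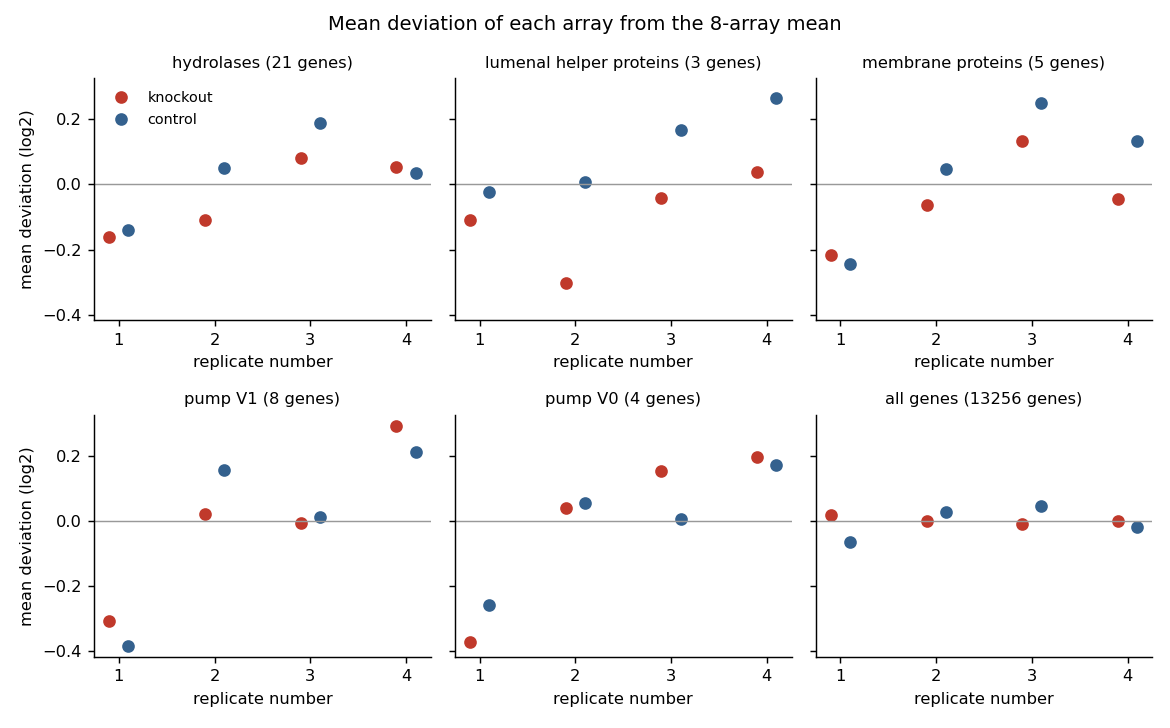
Mean deviation in log2 units of each array from the 8-array mean, for knockout (red, left of each number) and control (blue) samples by replicate number, over the genes of each group and over all genes. Both replicate 1 arrays are lowest for the V1 subunits, at -0.31 in the knockout and -0.38 in the control. All genes together stay within 0.1 of 0, where the scaling of every array to the same trimmed mean holds them.

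The V1 subunits also varied together from array to array. After the group means were removed, the median Pearson correlation over the 28 pairs of V1 subunits was 0.83 across the 8 arrays, with quartiles of 0.71 and 0.91. The same subunits had a median correlation of 0.0824 with all genes. Over the 91 pairs of pump genes the median was 0.64, over the 10 pairs of membrane proteins 0.45 and over the 210 pairs of hydrolases 0.33. These values describe 8 shared arrays, which carry the same scaling and the same replicate differences. Because this variation followed the replicate number, the block removed much of it. The median SE of the V1 subunits was 0.16 in the unpaired and 0.0766 in the paired fit. The median ratio of these errors was 1.97 for V1 subunits, 1.73 for V0 subunits, 1.48 for hydrolases and 1.24 over all genes. For the 9 tested preadipocyte and fibroblast markers it was 2.28. The paired fit, with its smaller errors, called no pump subunit, against 0.0604% of all genes higher and 0.0151% lower. The lowest paired limma adjusted p of a V1 subunit at its brightest probe set was 0.553.

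**Figure D4:**
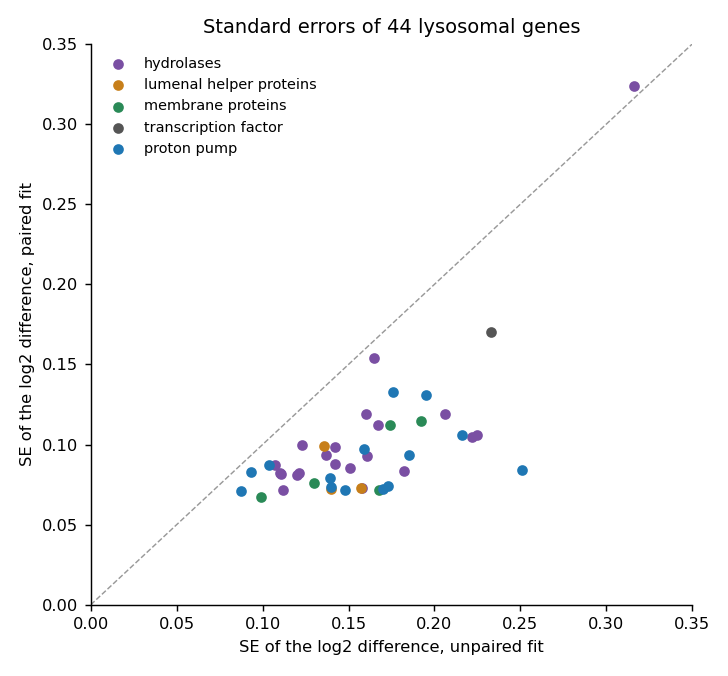
Standard error of the log2 difference of each of the 44 genes in the unpaired fit (x axis) and in the paired fit (y axis), coloured by group; the dashed line marks equal errors. All genes but 1 lie below the line, and the median ratio of the errors was 1.83 for pump genes and 1.48 for hydrolases.

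Other lysosomal and related genes, from lists of well-known members, gave 0 calls in either direction in both fits. The share over all genes was 0% in the unpaired fit, and 0.0604% higher and 0.0151% lower in the paired fit. Of 12 other lysosomal hydrolases 5 were below 0 (median log2 difference 0.0294), and of 17 other membrane and lumenal proteins 7 were (median 0.0449). At an unadjusted limma p under 0.05 in the unpaired fit these lists held 0 and 1 lower genes (0% and 5.88%, against 1.94% of all genes) and 0 higher ones. In the paired fit 2 and 1 were lower (16.7% and 5.88%, against 5.36% of all genes) and 1 and 2 higher (against 4.96%). In all 4 pairs each list held 3 lower genes (25% and 17.6%, against 9.44% of all genes). Higher in all 4 pairs were 2 and 3 genes (against 8.64%). Hyal2, a hyaluronidase, and Acp5, an acid phosphatase, had the largest differences of the first list at 0.35 (SE 0.23) and -0.30 (SE 0.16). Abca2, a lipid transporter, and Slc17a5, the sialic acid exporter, had the largest of the second at -0.49 (SE 0.53) and -0.39 (SE 0.18). Slc17a5 was lower in 4 of 4 pairs.

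The 5 other pump subunits had a median of -0.0705, with Atp6v0e2 at -0.25 (SE 0.28) and Atp6v1e2 at 0.23 (SE 0.23). The 13 genes that sort enzymes to the lysosome had a median of 0.037 and 5 below 0. In all 4 pairs 3 of them were higher (Ap1m1, Nagpa and Sumf1, against 8.64% of all genes) and 2 were lower (15.4%, against 9.44%). Sort1, a sorting receptor, and Gnptab, which makes the mannose phosphate tag of lysosomal enzymes, had log2 differences of -0.31 (SE 0.18) and -0.28 (SE 0.15), each lower in 4 of 4 pairs. Among 9 regulators of lysosome number and nutrient sensing, 7 were below 0 (median -0.0497), with Rragd, a GTPase of nutrient sensing, at -0.40 (SE 0.24) and Tsc2, an inhibitor of growth signalling, at 0.18 (SE 0.16).

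Of 15 autophagy genes 9 were below 0 (median -0.0572), and 1 was lower at an unadjusted limma p under 0.05 (6.67%, against 1.94% of all genes). That gene, Gabarapl1, an autophagosome protein of the LC3 family, read 3488.8, 3114.5, 3332.8 and 2776.1 on knockout arrays 1 to 4, against 3981.9, 4108.8, 4768.1 and 4525.6 on control arrays 1 to 4. All knockout values lay below all control values, as in 1.22% of all genes (log2 difference -0.44, SE 0.12, limma adjusted p = 0.999, paired adjusted p = 0.159). Atg7, an enzyme of autophagosome formation, had a log2 difference of 0.24 (SE 0.23) with overlapping groups.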

How the data were processed

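The 8 samples, 4 Dicer knockout and 4 control, were processed with Affymetrix GCOS 1.3 and MAS5, per the submitters' processing notes. The deposited values are array intensity (signal) per probe set, with a 2% trimmed mean of 1500 on every array, so they had been scaled per array. Other steps are not given in the sources used here. The number of arrays limits the precision.

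Values were taken as log2(signal + 73.1), 73.1 being the 20th percentile of all values, which understates the differences of dim probe sets. Of 45101 probe sets, 64 array controls were left out, and those in the lower 40% by mean were not tested, leaving 27022 probe sets of 13256 genes. The platform annotation gave 1 symbol for 34945 probe sets, several for 932 and none for 9160. Probe sets were compared with limma 3.58.1 in R 4.3.3 (lmFit, eBayes with trend, two-sided, Benjamini-Hochberg over all tested probe sets, threshold 0.05), tested on simulated data. Intervals are 95% and unadjusted. Figures used Python 3.11.15 and matplotlib 3.10.9.

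Deviations from the group means correlated at 0.342, 0.189, 0.199 and 0.373 between same-numbered knockout and control arrays 1 to 4, and at -0.347 to 0.149 between others. The numbers, which come from the labels, were therefore taken as pairs. Members, lists and tests were chosen with earlier results of these data known. Values on every array are given for the 3 members of each main group with the largest differences, those with separated groups and the brightest of each group. They are also given for Tfeb, Dicer1 and Lamp2, whose probe sets disagreed in sign with 1 at an unadjusted limma p under 0.05. Disagreement in sign was common. Of the 29 members with 2 or more tested probe sets, 12 had all of them on one side of 0. Alternatives were the block, other pseudocounts, filters, scalings and fits, and arrays left out.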

Additional observations from a re-analysis of the deposited data

Results flagged for a closer look

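In 6 of 114 groups of 4 arrays, checked for 57 genes, 1 array stood far from the others by Dixon's test at the 95% level, close to the 1 in 20 that chance gives. Control array 3 was high for Gaa (16827.7, the next at 12150.4, ratio of gap to range 0.898), Man2b1 (8885.9, the next at 6091.2, ratio 0.845) and Dicer1 (2113.7, the next at 1190.3, ratio 0.932). Knockout array 4 was high for Hexa (31112.9, the next at 22811.4, ratio 0.851) and Hyal2 (4679, the next at 2297.9, ratio 0.894). Knockout array 3 was low for Atp6v1e2 (340.1, the next at 504.3, ratio 0.851). The Gaa groups stay separated without control array 3, and the log2 difference was then -0.32.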

How the results depend on the processing

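The count of member probe sets called was 0 in each direction under every alternative run, which were the replicate block, other pseudocounts, filters, scalings and fits, each array or pair left out, and the odd or the even pairs alone. The replicate numbers were taken as pairs, and with the block 0 member probe sets were called, the lowest adjusted p being 0.124 for Gaa. Over all tested probe sets, the limma fit called 1 without the block and 10 higher and 3 lower with it. The median log2 difference of the pump genes ran from -0.107 to 0.118 with 1 array or pair left out, at -0.107 without control array 1, 0.0635 without control array 4, 0.118 without knockout array 1 and -0.0692 without knockout array 4. That of the membrane proteins ran from -0.192 to -0.0321, lowest without knockout array 3, and that of the hydrolases from -0.0747 to 0.0181. Gaa, Arsb, Gm2a, Psap, Naglu and Atp6ap1 stayed below 0 under every alternative, but single arrays moved the size of some. Against -0.286 with all arrays, Naglu was -0.499 without control array 1, -0.119 without control array 3 and -0.178 without knockout array 1. Against -0.221, Psap was -0.117 without knockout array 2 and -0.124 without control array 3. With 1 array left out, Neu1 (-0.26) ran from -0.43 without knockout array 4 to -0.124 without knockout array 1. Hexa (-0.157) ran from -0.307 without control array 1 to -0.0815 without control array 4, and Mcoln1 (-0.171) from -0.327 to -0.0783 without the same arrays. With 1 array left out, Gaa ran from -0.505 to -0.322, Arsb from -0.312 to -0.216, Gm2a from -0.401 to -0.252 and Atp6ap1 from -0.335 to -0.2. Other genes changed sign, among them Atp6v1d, Abca2, Ids and Tsc2 (0.205, -0.49, -0.127 and 0.179 with all arrays). Ids did so only with the mean of its probe sets, whose dimmer tested ones gave 0.416 and 0.235. For the others the cause was not tested. Quantile normalization turned Lamp1 (0.0283), Atp6v1c1 (0.00268) and Atp6v0a1 (-0.00883). Median centring turned Gusb (-0.0168), Asah1 (-0.00852), Atp6v1h (-0.00864) and Atp6v0a1 (-0.019). Array weights turned Asah1 (-0.00684), Galc (-0.0709), Tfeb (-0.0174) and Atp6v1h (-0.0358). The mean of a gene's probe sets turned Ids (0.175), Gla (0.0499), Atp6v1b2 (0.0389), Atp6v1c1 (0.0239), Atp6v1h (-0.022) and Atp6v0b (0.0128). The odd-numbered pairs alone turned Manba (0.0145), Gusb (-0.00476), Tpp1 (-0.0427), Lamp1 (0.079), Tfeb (-0.0352), Atp6v1a (-0.0201), Atp6v1b2 (0.0754), Atp6v1g1 (0.0463), Atp6v0a1 (-0.144) and Atp6v0d1 (-0.0116). The even-numbered pairs alone turned Fuca1 (0.00525), Asah1 (-0.0542), Galc (-0.0612), Smpd1 (-0.00999), Atp6v1c1 (0.156), Atp6v1d (-0.0261), Atp6v1e1 (0.0366), Atp6v1h (-0.0388), Atp6ap2 (0.0323) and Tsc2 (-0.0113). With 1 array or 1 pair left out, the ranges that crossed 0 were those of Manba (-0.0747 to 0.0445), Fuca1 (-0.11 to 0.115), Gusb (-0.0388 to 0.0913), Idua (-0.0213 to 0.194), Gla (-0.331 to 0.035), Asah1 (-0.0581 to 0.0649), Galc (-0.0484 to 0.487), Smpd1 (-0.00879 to 0.07) and Tpp1 (-0.055 to 0.258). They also took in Npc2 (-0.215 to 0.0257), Npc1 (-0.208 to 0.0658), Lamp1 (-0.155 to 0.128), Tfeb (-0.114 to 0.198), Atp6v1a (-0.0887 to 0.137), Atp6v1b2 (-0.158 to 0.0638), Atp6v1c1 (-0.248 to 0.151), Atp6v1e1 (-0.141 to 0.124) and Atp6v1g1 (-0.177 to 0.0852). Ranges across 0 were further found for Atp6v1h (-0.0983 to 0.111), Atp6v0a1 (-0.0988 to 0.163), Atp6v0b (-0.368 to 0.036), Atp6v0d1 (-0.0788 to 0.221), Atp6ap2 (-0.0802 to 0.00246), Abca2 (-1.083 to 0.0149), Tsc2 (-0.052 to 0.283) and Dicer1 (-0.226 to 0.0572). The number of arrays limits what could be detected, and the genes that changed sign have no settled direction here.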
